A study of Mus musculus with 6 samples.

Results

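The tricarboxylic acid (TCA) cycle burns the acetyl group of acetyl-CoA in the mitochondrial matrix and passes the electrons to the respiratory chain. Its enzymes are encoded in the nucleus and imported into the mitochondrion. The first step joins acetyl-CoA to oxaloacetate to make citrate, which can also leave the mitochondrion and give acetyl-CoA back in the cytosol for lipid synthesis and for histone acetylation. Activated B cells raise both glycolysis and mitochondrial metabolism, and HIF-1α is best known in metabolism for the induction of glycolytic genes and of kinases that hold pyruvate back from the cycle.

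The enzyme genes described here were taken by name from a table of FPKM, the reads on a gene scaled to its length and to the depth of the library. They were *Cs*, *Idh3a*, *Idh3b*, *Idh3g*, *Idh2*, *Ogdh*, *Suclg1*, *Fh1* and *Mdh2*. They are 9 of the 46983 genes listed, and all 9 were among the 13312 that were tested because their FPKM averaged 0.5 or more. The samples were 6 libraries of mouse splenic B cells, 3 WT and 3 *Hif1a* KO, on a C57BL/6 background. All were collected on day 3 of culture under conditions that drive class switching to IgA, namely 5 μg/ml LPS with TGF-β, IL-5 and BAFF (10 ng/ml of each). For such cultures the study's methods describe sorted follicular B cells. Cre expressed from *Mb1*, a gene of the B lineage, removes the floxed segment of *Hif1a* in KO mice. The WT controls were littermates that carried either cre with 1 floxed allele or 2 floxed alleles without cre; which of these a given library is cannot be read from the labels. The ages of the mice, and whether each library came from a separate mouse, are not given in the sources used here, so the p-values measure the spread between these libraries.

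The libraries held 25.0 to 37.2 M reads on genes, recovered from the FPKM values. WT replicate 1 stood apart from its group: on the axis of largest variance (54.7% of the total), it lay at −15.7, among the KO libraries at −19.5 to −7.10 and away from WT replicates 2 and 3 at 26.2 and 25.9. The comparisons of the cycle genes are therefore also given without it. That choice was made from these same values and itself moves the groups apart. The p-values without WT replicate 1 are therefore descriptions and not valid tests. *Hif1a* itself had an FPKM of 36.5, 49.8 and 45.8 (WT replicates 1, 2 and 3) and of 46.5, 45.6 and 52.8 (KO replicates 1, 2 and 3), and since FPKM counts all exons this does not check the deletion. B-cell markers summed to an FPKM of 2988 to 4071 in each library. T-cell markers other than *Lck* were below 1 FPKM in every library.

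The cycle enzymes were described with the DNA in front of their genes, because the comparison is one of cells with and without a transcription factor. HIF binds a short core, ACGTG or GCGTG, the hypoxia response element. RefSeq promoters (GRCm38.p6) were found for 8 of the 9 genes. In the 250 bases before the start, on either strand, 6 of these 8 held the core (*Idh2*, *Idh3g*, *Ogdh*, *Suclg1*, *Fh1* and *Mdh2*), and so did 41.5% of all 27025 genes with a promoter. The E-box CACGTG, which contains the core, was found in 1 of the 8, *Ogdh*, and in 6.86% of all genes. The motifs of NRF1 (its palindromic site), GABP (CCGGAAGT) and ERR (TCAAGGTCA), factors of mitochondrial genes, were in 0 of the 8 and in 0.877%, 3.23% and 0.422% of all genes. Such matches are descriptions of the sequence and not binding sites. The sequences of 3 of these genes follow, of which *Idh3g* and *Fh1* hold the core, in capitals on either strand, and *Cs* does not. They run 5′ to 3′ on the strand of the gene and end 1 base before its RefSeq start, at chrX:73786898-73787147 on the minus strand for *Idh3g*, chr1:175625636-175625885 on the minus strand for *Fh1* and chr10:128337477-128337726 on the plus strand for *Cs*.
Idh3g: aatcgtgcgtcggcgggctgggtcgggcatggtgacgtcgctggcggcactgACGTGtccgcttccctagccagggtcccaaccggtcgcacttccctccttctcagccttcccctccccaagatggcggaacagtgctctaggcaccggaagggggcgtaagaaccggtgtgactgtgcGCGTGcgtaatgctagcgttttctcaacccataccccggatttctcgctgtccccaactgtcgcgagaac
Fh1: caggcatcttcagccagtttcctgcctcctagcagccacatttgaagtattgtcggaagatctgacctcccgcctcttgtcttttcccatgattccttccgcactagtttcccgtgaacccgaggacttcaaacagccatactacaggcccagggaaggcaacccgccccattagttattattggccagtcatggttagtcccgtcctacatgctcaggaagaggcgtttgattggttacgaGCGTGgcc
Cs: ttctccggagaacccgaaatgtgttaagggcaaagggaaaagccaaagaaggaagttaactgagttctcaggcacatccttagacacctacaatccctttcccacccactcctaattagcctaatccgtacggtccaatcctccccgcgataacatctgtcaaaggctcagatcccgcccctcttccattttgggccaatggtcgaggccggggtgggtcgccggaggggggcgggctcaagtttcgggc

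All 9 genes were expressed well above the limit of the assay, and their levels kept nearly the same order in every library. *Mdh2* had the highest level, with a mean FPKM of 225.4 ± 11.1 (SD, 6 libraries), and *Idh3a* the lowest, with 28.7 ± 2.40. Between them came *Idh3g* (mean FPKM 135.8), *Fh1* (121.2), *Idh3b* (111.8), *Suclg1* (97.6), *Cs* (96.6), *Ogdh* (71.2) and *Idh2* (35.0). The ranges of neighbours over the libraries did not overlap between *Mdh2* and *Idh3g*, between *Cs* and *Ogdh* and between *Ogdh* and *Idh2*. *Suclg1* was above *Cs* in 3 of 6 libraries, so these neighbours could not be ordered. The remaining neighbours overlapped in range, although *Fh1* exceeded *Idh3b*, *Idh3b* exceeded *Suclg1* and *Idh2* exceeded *Idh3a* in 6 of 6 libraries and *Idh3g* exceeded *Fh1* in 5 of 6. FPKM is a value per length, so levels of different genes can be set side by side, but the lengths behind the values, recovered as 912 to 2828 bases, were shorter than the summed exons of these genes in GENCODE vM21, at 2588 to 5779 bases, and the order depends on them.

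These values rest on 921 to 9927 reads per gene and library, the fewest for *Idh2* in WT replicate 3 and the most for *Cs* in WT replicate 1. The counting error was thus between 1% and 3.3% of the value. The coefficient of variation over all 6 libraries ran from 2.14% for *Ogdh* to 10.8% for *Idh2*, with a median of 4.91%, against a median of 7.65% over the 4390 tested genes of at least the level of *Idh3a*. No transcript of another gene shared 100 bases or more at 95% identity with any of the 9, and their exons did not overlap those of another gene, except for 5 bases that *Idh3b* shares with *Nop56* on the opposite strand (*Nop56* log2 fold change −0.33, SE 0.14).

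**Figure D1:**
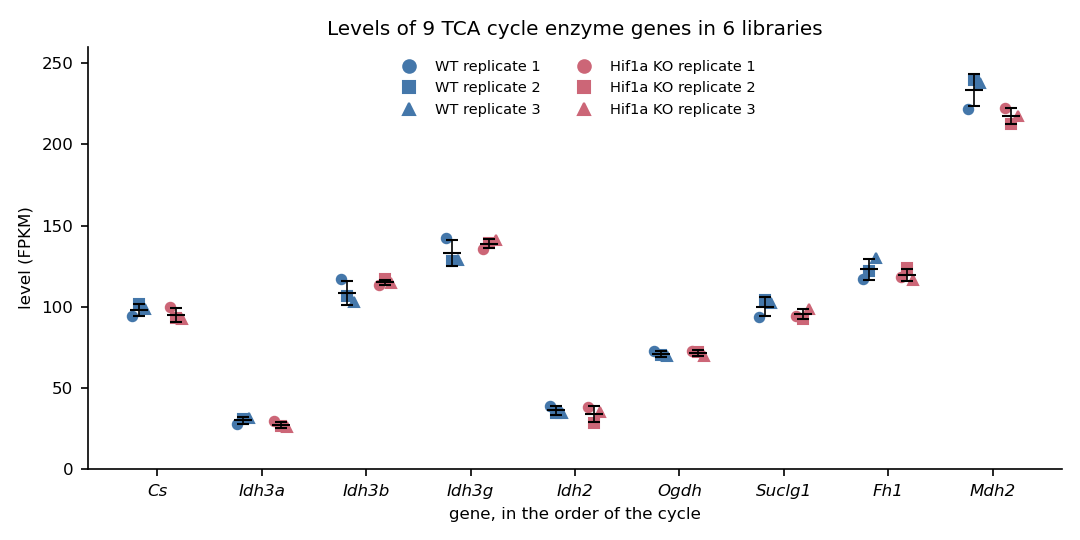
Level (FPKM) of the 9 TCA cycle enzyme genes in each library, with the group mean and SD in black (n = 3 per group); circles, squares and triangles are replicates 1, 2 and 3. *Mdh2* lies highest at 212.6 to 239.8 and *Idh3a* lowest at 25.9 to 31.6, and WT and *Hif1a* KO libraries overlap in all 9 genes.

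The comparison of *Hif1a* KO with WT cells asks whether loss of HIF-1α changes the transcript levels of the cycle during IgA class switching. No cycle enzyme was differentially expressed (0 of 9). Of all 13312 genes tested, 0.0% were differentially expressed, both by limma (Benjamini-Hochberg adjusted) and by voom on the recovered reads. At an unadjusted p under 0.05 there were also 0 of the 9, against 6.98% of all genes (2.48% higher and 4.5% lower in KO cells). The WT and KO values overlapped in each of the 9, whereas they did not overlap in 10.1% of all genes (6.03% with KO lower). Of the 9, 6 were lower and 3 higher in KO cells. Of all genes 57.9% were lower, and so were 2370 of the 4390 tested genes of at least the level of *Idh3a*. The median log2 fold change of the 9 was −0.049, and −0.014 with median-ratio scaling of the libraries. Without that scaling it was −0.028 over all genes tested and −0.013 over the 4390.

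The differences were small as well as uncertain. The 95% intervals of all 9 log2 fold changes lay between −0.38 and 0.24. The bound farthest from 0 was that of *Idh2*, at a fold of 0.770, and the highest was that of *Idh3b*, at a fold of 1.18. All 9 intervals stayed within 0.5 on either side of 0 on the log2 scale, a limit chosen after the values were seen. Those of 70.9% of all genes did, and those of 83.0% of the 4390 tested genes of at least the level of *Idh3a*. Summed over the 9 genes, the FPKM was 925.7, 937.9 and 935.8 (WT replicates 1, 2 and 3) and 924.3, 905.0 and 911.3 (KO replicates 1, 2 and 3). The KO sums were therefore all below the WT sums, with means of 933.1 ± 6.52 in WT and 913.6 ± 9.84 in KO libraries (SD, n = 3 each), although WT replicate 1 and KO replicate 1 lay close together. With median-ratio scaling the sums were 920.9 ± 18.1 in WT and 923.3 ± 9.11 in KO libraries (SD, n = 3 each), so the groups overlapped and the direction turned.

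*Cs* (ENSMUSG00000005683, chr10:128337734-128362479, plus strand of GRCm38, as are the positions that follow) encodes citrate synthase, which brings acetyl-CoA into the cycle. Its FPKM was 94.3, 101.8 and 98.6 (WT replicates 1, 2 and 3) and 99.6, 92.8 and 92.4 (KO replicates 1, 2 and 3). WT replicate 1 and KO replicate 1 lay on the side of the other genotype. The fitted difference, KO minus WT, was −0.049 in log2 units (SE 0.062, limma adjusted p = 0.782), with a 95% interval from −0.20 to 0.098.

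The mitochondrial NAD-dependent isocitrate dehydrogenase, which turns isocitrate into 2-oxoglutarate, is built from the catalytic subunit IDH3A and from IDH3B and IDH3G. Over the 6 libraries the transcripts of IDH3B and IDH3G varied together (Pearson's r = 0.93). That of IDH3A ran against both (r = −0.87 and −0.92). The genes are *Idh3a* (ENSMUSG00000032279, chr9:54586334-54604661, plus strand), *Idh3b* (ENSMUSG00000027406, chr2:130279309-130284547, minus strand) and *Idh3g* (ENSMUSG00000002010, chrX:73778963-73786897, minus strand). The *Idh3a* FPKM was 27.7, 31.1 and 31.6 in WT and 29.5, 26.5 and 25.9 (KO replicates 1, 2 and 3). WT replicates 2 and 3 held its highest values and KO replicates 2 and 3 its lowest. Its log2 fold change, −0.14 (SE 0.082, limma adjusted p = 0.633), was the largest of the 9 in size. The *Idh3b* FPKM was 116.9, 106.4 and 102.6 in WT and 113.4, 116.9 and 114.5 in KO replicates, with WT replicate 1 as high as any KO library. On the log2 scale KO minus WT was 0.082 (SE 0.066, limma adjusted p = 0.681). The *Idh3g* FPKM was 142.2, 127.9 and 128.8 in WT and 135.6, 139.4 and 141.1 in KO replicates, again with WT replicate 1 at the top. KO differed from WT by 0.062 on the log2 scale (SE 0.064, limma adjusted p = 0.737).

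*Idh2* (ENSMUSG00000030541, chr7:80094846-80115392, minus strand) encodes the NADP-dependent isocitrate dehydrogenase of the mitochondrion, a source of NADPH that can also run in reverse. Its FPKM was 39.2, 34.4 and 34.8 in WT and 38.2, 28.4 and 34.9 (KO replicates 1, 2 and 3). KO replicate 2 was lowest and the other KO libraries lay within the WT range. The fitted difference, KO minus WT, was −0.099 in log2 units (SE 0.12, limma adjusted p = 0.768), and it was 0.018 without KO replicate 2.

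*Ogdh* (ENSMUSG00000020456, chr11:6291633-6356642, plus strand) encodes the first component of the 2-oxoglutarate dehydrogenase complex. It was the steadiest of the 9, with an FPKM of 72.7, 70.4 and 69.4 in WT and 72.7, 72.1 and 69.7 (KO replicates 1, 2 and 3). On the log2 scale KO minus WT was 0.013 (SE 0.055, limma adjusted p = 0.940), with a 95% interval from −0.12 to 0.14. *Suclg1* (ENSMUSG00000052738, chr6:73248382-73276911, plus strand), the α subunit shared by both forms of succinyl-CoA ligase, the enzyme that makes ATP or GTP in the cycle, had an FPKM of 93.5, 104.3 and 102.1 in WT and 94.6, 92.7 and 98.6 in KO replicates. WT replicates 2 and 3 were above all KO libraries and WT replicate 1 was not. KO differed from WT by −0.068 on the log2 scale (SE 0.065, limma adjusted p = 0.724).

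*Fh1* (ENSMUSG00000026526, chr1:175600374-175625635, minus strand) encodes fumarase, which hydrates fumarate to malate and whose transcript also supplies the cytosolic enzyme. Its FPKM was 117.3, 121.7 and 130.0 in WT and 118.1, 123.6 and 116.7 in KO replicates 1, 2 and 3, with WT replicate 3 highest and the other WT and KO libraries intermixed. The fitted difference, KO minus WT, was −0.041 in log2 units (SE 0.063, limma adjusted p = 0.820). *Mdh2* (ENSMUSG00000019179, chr5:135778480-135790398, plus strand), the malate dehydrogenase that regenerates oxaloacetate, had 221.9, 239.8 and 238.0 in WT and 222.5, 212.6 and 217.6 in KO replicates. WT replicate 1 lay just below KO replicate 1, and this was the only overlap between the groups. On the log2 scale KO minus WT was −0.099 (SE 0.059, limma adjusted p = 0.633), with a 95% interval from −0.24 to 0.041.

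**Figure D2:**
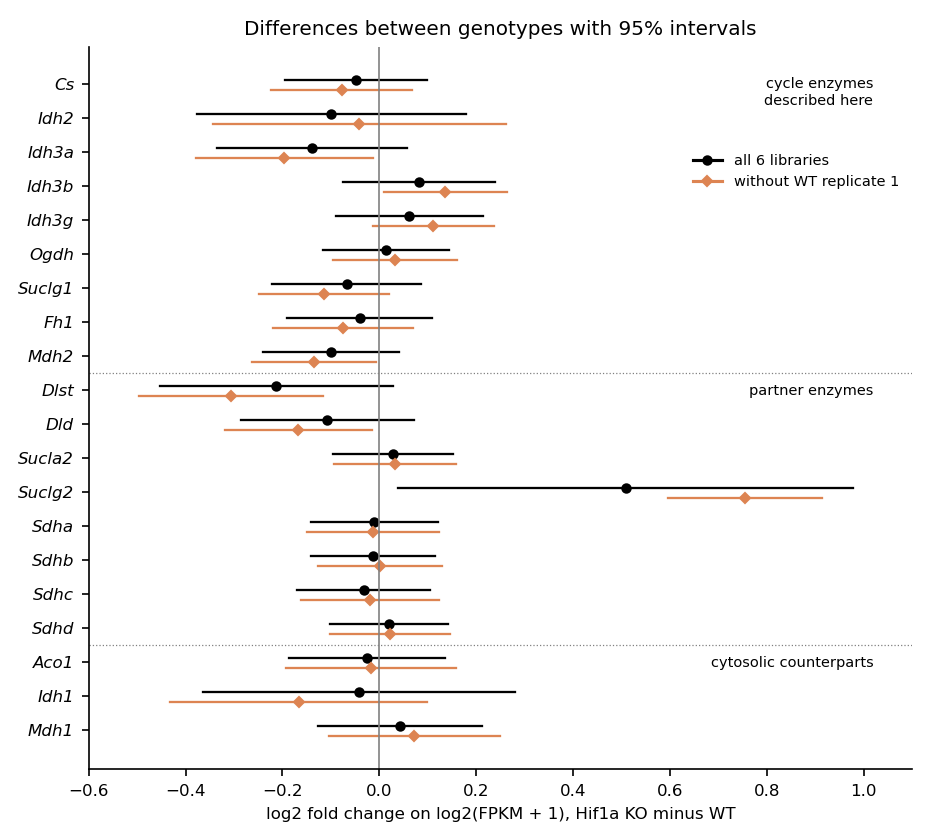
Log2 fold change on the log2(FPKM + 1) scale (*Hif1a* KO minus WT, dots) with its 95% interval (lines) for the 9 cycle enzymes, 8 partner enzymes and 3 cytosolic counterparts, with all 6 libraries in black and without WT replicate 1 in orange. All intervals of the 9 lie between −0.38 and 0.24 with 6 libraries, and *Suclg2* is the partner farthest from 0, at 0.51 and at 0.76 without WT replicate 1.

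Across the libraries the 9 genes varied in opposite directions. Between *Idh3b* and *Idh3g* Pearson's r was 0.93 over the 6 libraries. Between *Idh3a* and *Mdh2* it was 0.92, and between *Cs* and *Idh3a* also 0.92. Across these 2 sets it was negative, at −0.87 between *Idh3a* and *Idh3b*, −0.92 between *Idh3a* and *Idh3g* and −0.92 between *Idh3b* and *Mdh2*. *Idh2* followed none of them closely, and its r with the other members ran from −0.45 to 0.33. These correlations are descriptions over 6 libraries that differ in genotype and share the contrast of WT replicates 2 and 3 with the rest. The mean profile of the 9, which stays between −0.050 and 0.022 on the log2 scale, was matched most closely by *Tnfsf14* (r = 0.99), *Cct5* (0.98), *Gm23966* (0.98), *Plekhg3* (0.97) and *Atp5k-ps2* (0.97), chosen as the 5 with the highest Pearson's r over 6 libraries among all genes tested. Of these, *Cct5*, a subunit of the cytosolic chaperonin, had a mean FPKM of 342.1 and the other 4 had values of 2.65 or less.

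**Figure D3:**
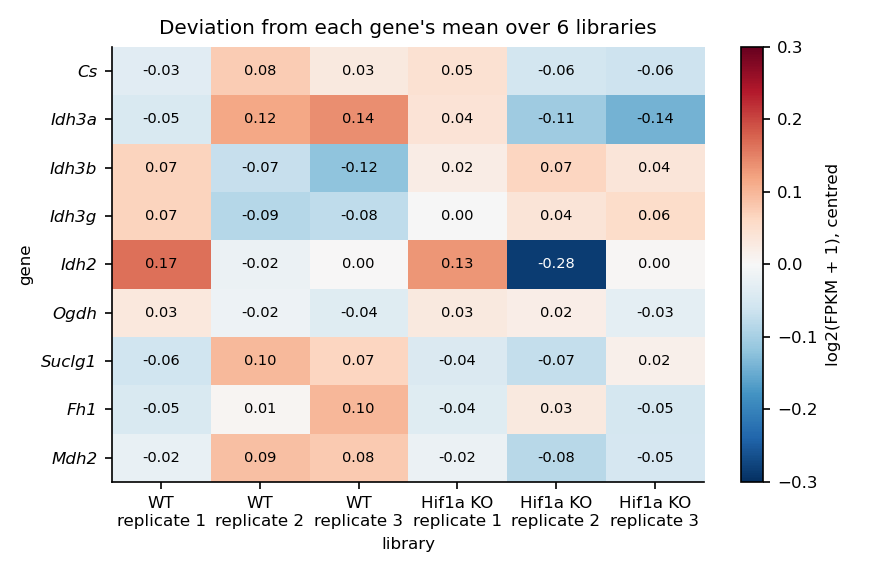
Deviation of each of the 9 genes (rows, in the order of the cycle) in each library (columns) from the mean of the gene over 6 libraries, on the log2(FPKM + 1) scale, with the value in each cell. *Idh3a* is at 0.12 and 0.14 in WT replicates 2 and 3, where *Idh3b* is at −0.07 and −0.12, and the cell farthest from 0 is *Idh2* in KO replicate 2 at −0.28.

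Leaving out WT replicate 1 ended the overlap of the groups in some of the 9 genes and not in others. Without it, 0 of the 9 genes had a limma adjusted p under 0.05, against 9.4% of all genes, and the adjusted p of the 9 ran from 0.147 to 0.851. At an unadjusted p under 0.05 there were then 3 of the 9, *Idh3a*, *Idh3b* and *Mdh2*, against 29.9% of all genes. The groups no longer overlapped in 5 of the 9, *Idh3a*, *Suclg1* and *Mdh2* lower and *Idh3b* and *Idh3g* higher in KO cells, against 50.5% of all genes. The log2 fold changes without this library were −0.20 (SE 0.075) for *Idh3a*, 0.14 (SE 0.052) for *Idh3b*, 0.11 (SE 0.051) for *Idh3g*, −0.11 (SE 0.055) for *Suclg1* and −0.13 (SE 0.052) for *Mdh2*. The other 4 genes, in which the groups still overlapped, were at −0.077 (*Cs*), −0.041 (*Idh2*), 0.032 (*Ogdh*) and −0.074 (*Fh1*). The directions of all 9 were the same with and without it, with 6 lower and 3 higher.

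The partner enzymes of the cycle, which the list of 9 leaves out, include the other components of the 2-oxoglutarate dehydrogenase complex (*Dlst* and *Dld*), the β subunits of succinyl-CoA ligase (*Sucla2* for the ATP form and *Suclg2* for the GTP form) and the subunits of succinate dehydrogenase. All 9 partners were tested and 0 were differentially expressed, as were 0.0% of all genes. Of the 9, 1, *Suclg2*, had an unadjusted p under 0.05 by limma, against 6.98% of all genes. The median log2 fold change of the 9 partners was −0.013. The subunits of succinate dehydrogenase lay close to 0, with log2 fold changes of −0.010 for *Sdha*, −0.013 for *Sdhb*, −0.032 for *Sdhc* and 0.021 for *Sdhd*, and with median-ratio scaling the first 3 turned to 0.024, 0.021 and 0.0026. *Sdha* had the highest level of the cycle genes named here, with an FPKM of 393.8 to 411.5. *Dld* was at −0.11 (SE 0.075).

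*Suclg2* was the partner gene that differed most between genotypes. Its FPKM was 97.1, 58.4 and 57.1 (WT replicates 1, 2 and 3) and 92.5, 99.0 and 103.5 (KO replicates 1, 2 and 3). WT replicate 1 lay within the KO range, and WT replicates 2 and 3 were far below it. KO differed from WT by 0.51 on the log2 scale (SE 0.20, limma adjusted p = 0.626, unadjusted p = 0.0375). Without WT replicate 1 it was 0.76 (SE 0.066, limma adjusted p = 0.00445). *Suclg2* was then the 1 partner of the 9 with an adjusted p under 0.05, against 9.4% of all genes, which is a description and not a valid test. *Sucla2*, which competes for the same α subunit, stayed between 61.1 and 63.9 in all libraries, with a log2 fold change of 0.028 (SE 0.052). Of the 5 plasma cell markers, 4 of them tested, *Xbp1*, *Jchain* and *Prdm1* were lowest in WT replicates 2 and 3, as *Suclg2* was. *Sdc1* did not follow them (FPKM 2.68 to 4.67, lowest in KO replicate 1, log2 fold change −0.14 and −0.023 without WT replicate 1), and *Tnfrsf17* was at 0.179 or less. The summed FPKM of the 5 genes, most of it from *Xbp1* and *Jchain*, was 589.7 in WT replicate 1 and 551.1, 408.3 and 754.4 in the KO replicates, against 324.9 and 297.3 in WT replicates 2 and 3. The 11 macrophage markers, none of them at 0 in every library, summed to 171.1 and 119.5 in WT replicates 2 and 3 and to 67.6 to 79.3 elsewhere. Most of each sum came from *Adgre1* (FPKM 55.5 to 91.1) and, in WT replicates 2 and 3, also from *Lyz2*. *Mrc1* did not follow them (FPKM 0.714 to 1.12, log2 fold change 0.071). The 4 erythroid markers summed to 12.8 and 9.38 in WT replicates 2 and 3 and to 0.756 to 1.49 elsewhere, and the 2 of them that were tested, *Hbb-bs* and *Hba-a1*, were lower in KO cells without WT replicate 1 (limma adjusted p = 0.00437 and 0.00494). The 12 proliferation genes summed to 2176 and 2162 in WT replicates 2 and 3 and to 1684 to 1954 elsewhere. The neutrophil markers summed to 33.1 in WT replicate 1 and to 0.527 or less in the others. The part of these in the values of *Suclg2* and of the cycle enzymes was not tested, and in bulk RNA fewer cells of a type and less RNA per cell cannot be told apart.

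*Dlst* encodes the lipoyl-carrying core of the 2-oxoglutarate dehydrogenase complex. Its FPKM was 48.8, 59.7 and 59.3 in WT and 51.4, 48.7 and 44.0 in KO replicates 1, 2 and 3, and WT replicate 1 overlapped the KO range. The fitted difference, KO minus WT, was −0.21 in log2 units (SE 0.10, limma adjusted p = 0.626) with all libraries and −0.31 (SE 0.078, limma adjusted p = 0.0625) without WT replicate 1. With all 6 libraries the gene was therefore not called, and neither was any other gene tested. The fit without WT replicate 1 is a description.

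Ratios of levels within a complex or between isozymes do not depend on the scaling of a library. The 6 ratios were compared between the genotypes by an exact permutation test, two-sided, for which the smallest p with 3 against 3 libraries is 0.1, and no ratio reached it. The ratio of *Idh3b* to *Idh3a* was 4.22, 3.42 and 3.24 in WT and 3.84, 4.41 and 4.43 in KO replicates 1, 2 and 3 (difference of the mean log2 ratio 0.23, exact permutation p = 0.2, adjusted p = 0.3 over the 6 ratios). That of *Idh3g* to *Idh3a* was 5.13, 4.11 and 4.07 in WT and 4.60, 5.26 and 5.45 in KO replicates (0.21, exact permutation p = 0.2, adjusted p = 0.3). Both ratios were lowest in WT replicates 2 and 3, and both groups overlapped because of WT replicate 1.

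The ratio of *Ogdh* to *Dlst* was 1.28 ± 0.183 in WT and 1.49 ± 0.0863 in KO cells (SD, n = 3 each, exact permutation p = 0.3, adjusted p = 0.36). The ratio of the GTP form to the ATP form of succinyl-CoA ligase, *Suclg2* to *Sucla2*, was 1.56, 0.957 and 0.918 in WT and 1.49, 1.56 and 1.62 in KO replicates. The FPKM of *Suclg2* was the higher one in 4 libraries, and that of *Sucla2* was slightly higher in WT replicates 2 and 3. Which transcript is the higher one depends on the gene lengths behind the values. The difference of the mean log2 ratio was 0.49 (exact permutation p = 0.2, adjusted p = 0.3), and 0.73 without WT replicate 1.

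Both *Mdh2* and *Idh2* have a cytosolic isozyme. *Mdh1*, the malate dehydrogenase of the cytosol, had an FPKM of 223.2 to 255.8, close to the level of *Mdh2*. The ratio of *Mdh2* to *Mdh1* was 0.910, 1.05 and 1.03 in WT and 0.905, 0.953 and 0.851 in KO replicates 1, 2 and 3 (difference of the mean log2 ratio −0.14, exact permutation p = 0.2, adjusted p = 0.3). The FPKM of *Mdh2* was the higher one only in WT replicates 2 and 3, an order that also depends on the gene lengths. *Idh1*, the cytosolic NADP-dependent isocitrate dehydrogenase, had an FPKM of 22.7 to 29.9. The ratio of *Idh2* to *Idh1* was 1.35 ± 0.324 in WT and 1.30 ± 0.352 in KO cells (SD, n = 3 each, exact permutation p = 0.9, adjusted p = 0.9). The difference of its mean log2 was −0.060 with all libraries and turned to 0.13 without WT replicate 1 and also without KO replicate 2. The 3 cytosolic counterparts, *Aco1* included, had log2 fold changes of −0.042 to 0.043. Of these, 0 were differentially expressed, as were 0.0% of all genes.

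**Figure D4:**
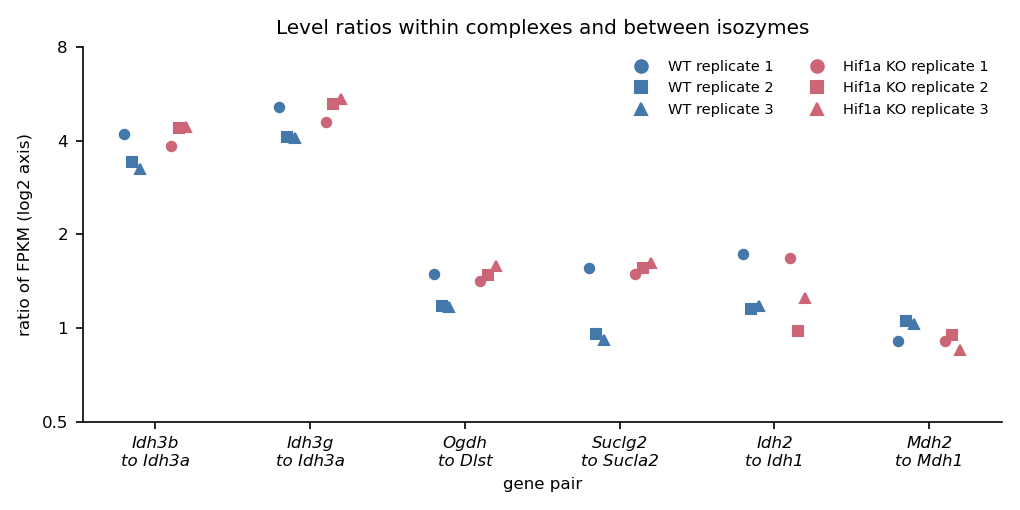
Ratio of FPKM between paired genes in each library (log2 axis); circles, squares and triangles are replicates 1, 2 and 3, WT in blue and *Hif1a* KO in red. *Suclg2* to *Sucla2* is at 0.957 and 0.918 in WT replicates 2 and 3 and at 1.49 to 1.62 in the other 4 libraries, and in each of the 6 ratios the groups overlap.

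The genes around the cycle gave a mixed picture. With all 6 libraries none of their lists held a differentially expressed gene, and 0.0% of all genes tested were differentially expressed. Of the 13 tested genes for the entry of pyruvate, 5 were higher and 8 lower in KO cells (median −0.010 on the log2 scale). *Pcx*, pyruvate carboxylase, which refills oxaloacetate, had an FPKM of 3.27, 5.33 and 5.11 in WT and 3.21, 3.10 and 2.71 in KO replicates 1, 2 and 3, all KO values below all WT values (log2 fold change −0.45, SE 0.17, limma adjusted p = 0.626). *Dlat*, a core subunit of pyruvate dehydrogenase, was at −0.12 (SE 0.064) and *Pdhx* at −0.19 (SE 0.10), while *Pdha1* and *Pdhb* were at −0.010 and 0.052. Without WT replicate 1 *Pcx* was at −0.64 (limma adjusted p = 0.0187). As a description, it was then the 1 gene of the 13 with an adjusted p under 0.05, against 9.4% of all genes.

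Of the 14 tested genes that feed carbon into the cycle or carry it out, 3 were higher and 11 lower, with a median of −0.059. The largest difference was that of *Gpt2*, the mitochondrial alanine aminotransferase, with an FPKM of 3.22, 16.2 and 17.9 in WT and 3.67, 3.11 and 3.92 in KO replicates 1, 2 and 3 (log2 fold change −1.29, SE 0.54, limma adjusted p = 0.626). WT replicates 2 and 3 stood alone, and without WT replicate 1 the log2 fold change was −1.99 (limma adjusted p = 0.00126). *Pck2*, the mitochondrial PEP carboxykinase, followed the same pattern, with an FPKM of 36.3, 57.1 and 58.6 in WT replicates and 37.5 ± 0.465 in KO cells (SD, n = 3). Without WT replicate 1, again as a description, 4 of the 14 had an adjusted p under 0.05, all lower in KO cells, against 9.4% of all genes in either direction. *Acly*, which splits exported citrate, was at −0.080 (SE 0.063), and *Glud1* and *Got2*, which feed glutamate carbon into the cycle, were at −0.068 and −0.038.

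Among the 13 genes for lipoyl and iron-sulfur cofactors and for the assembly of succinate dehydrogenase, 9 were higher and 4 lower. *Lipt1*, which attaches the lipoyl group to the dehydrogenase complexes, had the largest difference, with KO values all below WT values (log2 fold change −0.50, SE 0.13, unadjusted p = 0.00658, limma adjusted p = 0.626). Its counterpart *Lipt2* lay in the other direction, at 0.19 (SE 0.11), with KO values all above WT values. The groups did not overlap in these 2 of the 13 genes, against 10.1% of all genes. Both levels were low, with an FPKM of 1.45 to 3.22 for *Lipt1* and 1.25 to 1.89 for *Lipt2*. There the pseudocount of 1 makes log2 fold changes smaller.

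The other mitochondrial lists served as a comparison. The 70 respiratory chain subunits had a median log2 fold change of −0.047, beside −0.049 for the 9 cycle enzymes. The 14 genes of mitochondrial import and structure were at −0.15, with 13 of 14 lower, against 57.9% of all genes, and 5 lower at an unadjusted p under 0.05 (*Tomm40*, *Hspa9*, *Vdac1*, *Vdac3* and *Hspe1*), against 4.5% of all genes. The 21 tested genes of glycolysis were at −0.21, and WT and KO values did not overlap in 11 of the 21 (52.4%), against 10.1% of all genes tested and 0 of the 9 cycle enzymes. No test of the difference between lists was made, so these medians stand side by side as a description.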

How the data were processed

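FPKM values were deposited, 1 column per library; the authors had computed them from HTSeq counts and gene lengths after quality filtering and paired-end TopHat alignment to mm10. The annotation release and strand option are not given in the sources used here. Symbols came from GENCODE vM21 (46488 of 46983 gene IDs matched) and promoters from RefSeq (GRCm38.p6). Reads were recovered from the FPKM values: the worth of 1 read came from genes with a single transcript, and the shortest length that made all values of a gene whole within 0.02 was used, for 25717 of 25717 genes above 0. All KO and WT libraries were compared in R 4.3.3 with limma 3.58.1 (eBayes with trend) on log2(FPKM + 1), a pseudocount of 1, over 13312 genes whose FPKM averaged 0.5 or more, Benjamini-Hochberg adjusted at 0.05. Differences are on that scale. The fit was also run on simulated data, with the outcome not reported here. Their spread was drawn separately for each gene, so they hold no shift shared by many genes. Tables and figures were made in Python 3.11.15. Ratios were compared by exact permutation. Alternatives were another pseudocount, filter, scaling or variance model, a replicate block, voom on the recovered reads and leaving out each library. Named were the 9 members, their partners (1 of which is counted but not reported here) and counterparts and, of each other list, up to 6 genes with the largest t; *Pdha1*, *Pdhb*, *Acly*, *Glud1*, *Got2* and *Nop56* were added after their values were seen. The members and lists were chosen with earlier results of these data known.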

Additional observations from a re-analysis of the deposited data

How the results depend on the processing

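The count of differentially expressed cycle enzymes stayed at 0 under all 15 alternatives, leaving out each library included. Among all genes tested, the fit lacking WT replicate 1 called 1251 of 13312 (9.4%). The fit lacking KO replicate 1 called 1 gene, and every other alternative called 0. Apart from the fit lacking WT replicate 1, the 0 among the cycle enzymes is therefore not specific to them. The median log2 fold change of the cycle enzymes, −0.049, moved to −0.014 with median-ratio scaling. With 1 library left out it ran from −0.074 (without WT replicate 1) to −0.030 (without *Hif1a* KO replicate 3). The count among the partner enzymes ran from 0 to 1, the 1 being *Suclg2* without WT replicate 1. With median-ratio scaling *Sdha* turned to 0.024, *Sdhb* to 0.021, *Sdhc* to 0.0026 and *Aco1* to 0.0090. With 1 library left out, direction turned in *Idh2* (−0.19 to 0.018), *Ogdh* (−0.0012 to 0.032), *Sdha* (−0.026 to 0.0063), *Sdhb* (−0.027 to 0.0051), *Aco1* (−0.070 to 0.011) and *Idh1* (−0.17 to 0.060), and in the *Idh2* to *Idh1* log2 ratio (−0.26 to 0.13). The log2 fold change of *Suclg2* ran from 0.38 to 0.76 and that of *Dlst* from −0.31 to −0.15. The difference of the *Suclg2* to *Sucla2* log2 ratio ran from 0.35 to 0.73. The cause of these shifts was not tested.

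The labels do not say whether same-numbered libraries were paired. The deviations of same-numbered libraries correlated at −0.099, 0.14 and −0.28, and with 3 libraries per group these values cannot settle it. With the replicate block 0 of the 9 genes and 0 of the 9 partners were called, as were 0 of all 13312 genes tested. With 3 libraries in each group a block cannot change a mean difference, so the ratios (0.23 for *Idh3b* to *Idh3a*) could differ only in their p, whose smallest exact sign-flip value with 3 pairs is 0.25. Genes of under about 0.5 FPKM were not tested, and with 3 libraries per group small changes can be missed.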
